A study of Mus musculus with 6 samples.

Results

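The Bex and Tceal genes are a cluster of small adaptor genes on chromosome X, and 5 of them were chosen for description in embryonic mouse hearts lacking Dicer: Bex1, Bex2, Tceal1, Tceal5 and Tceal8. They were chosen by name with their measured mutant-minus-control differences on these arrays already known, so those differences are given as a description with no test. Bex1, Tceal1, Tceal5 and Tceal8 have a probe in the platform annotation, 5 probes in all because Tceal1 has 2, among 17727 probes of 15012 genes that were tested. Bex2 was not analysed here. A further 5 genes of the family, which were not among the chosen ones, could be tested: Bex3, Bex4, Bex6, Tceal6 and Tceal9. Bex1 and Tceal5, which are direct neighbours on the chromosome, lay lower in every mutant heart array than in any control array, at 54.6% and 59.4% of the control level. Tceal8 and Tceal1 did not share this difference, and Bex4 lay higher in every mutant array.

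The hearts came from mouse embryos at embryonic day 11.5. In the mutant group Dicer was inactivated by a Cre recombinase knocked into the Nkx2.5 locus, which is active in cardiac progenitors and their descendants. Endothelial, epicardial, neural crest and blood cells that do not descend from such progenitors can keep the enzyme. The control group is labelled only as control hearts, and the sources used here do not give its genotype. Each group had 3 single-colour CodeLink arrays with biotin-labelled total RNA from dissected hearts. Whether a group's arrays held separate embryos, pools or litters is not stated, so p-values cover only the spread of these samples, part of which may be technical.

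Bex stands for brain expressed X-linked, and Tceal for transcription elongation factor A-like. Both subfamilies encode very short, largely unstructured proteins that bind other proteins rather than acting as enzymes. Bex1 and Bex3 bind the intracellular part of the p75 neurotrophin receptor, and human BEX2 takes part in complexes of the transcription factor LMO2. The Tceal proteins resemble a stretch of the elongation factor TFIIS, which helps stalled RNA polymerase II to go on. In adult mouse heart Bex1 is known for binding RNA and stabilising messages in cardiac stress. The genes lie close together on the X chromosome of placental mammals, beside the related Armcx and Gprasp genes, and their copies are known to share promoter sequence and to have exchanged sequence by gene conversion.

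Promoter sequences are shown because they set Bex1 and Tceal5 beside measured family genes with smaller or opposite differences. The windows, each of 30 bases, come from RefSeq for mouse assembly GRCm38.p6, and all 12 family genes were matched there by symbol. They were searched on both strands from 250 bases before to 50 bases after each gene start. Capitals mark the letters TGACG and CACGTGA, a pair chosen after reading these promoters. The second of them contains the E-box letters CACGTG, which many basic helix-loop-helix factors recognise. The windows follow, first for Bex1 and Tceal5, then for Bex4, Tceal8, Tceal1 and Bex3:
Bex1, chrX:136215503-136215532, minus strand: cttcTGACGcaagtggCACGTGActagccc
Tceal5, chrX:136203886-136203915, minus strand: ctggTGACGttcctgtCACGTGAtcaggag
Bex4, chrX:136138971-136139000, plus strand: cttcTGACGcaagtggCACGTGActagccc
Tceal8, chrX:136172221-136172250, minus strand: ttgaTGACGcgatcctCACGTGAccagcag
Tceal1, chrX:136707963-136707992, plus strand: gctgTGACGcgctcccctCACGTGAccagg
Bex3, chrX:136270262-136270291, plus strand: gcagTGACGcagggccctCACGTGAcccgg

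CACGTGA was present in 9 of the 12 family genes, against 4.29% of all 27025 genes with a promoter in the table, and absent from Bex2, Bex6 and Tceal9. TGACG followed after 7 bases by CACGTGA was present in Bex1, Bex4, Tceal5, Tceal8 and the unshown Tceal3 and Tceal6, 6 of the 10 genes that hold it among all (0.037% of genes). With a spacing of 7 to 9 bases, Bex3 and Tceal1 joined them, for 8 family genes of 21 genes in all (0.0777%). The letters therefore stand in promoters of genes that were lower (Bex1, Tceal5 and, narrowly, Bex3), higher (Bex4) and overlapping (Tceal8, Tceal1, Tceal6) in the mutant hearts. Outside the family, 13 genes hold the pair at that spacing, among them Armcx1, Armcx4 and Armcx6 of the same chromosome. Of these, 11 were measured, 0 passed limma's test and 0 had an unadjusted p under 0.05, with log2 differences between -0.18 and 0.27 and a median of -0.04. Because the pair was chosen after reading the family's promoters, its larger share there is a description and not a test. A match is a description of letters and not a binding site.

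Bex1 and Bex4 share far more than this pair. Of the 300 promoter bases of each, 271 form an identical run, whereas the next longest run between family promoters, of Bex2 and Bex3, is 162 bases. The first 221 bases of that run, all upstream of both gene starts, are shown because the identical letters precede genes that lay on opposite sides of the controls. They are at chrX:136215514-136215734 on the minus strand for Bex1 and at chrX:136138769-136138989 on the plus strand for Bex4:
Bex1 and Bex4, shared 221 bases: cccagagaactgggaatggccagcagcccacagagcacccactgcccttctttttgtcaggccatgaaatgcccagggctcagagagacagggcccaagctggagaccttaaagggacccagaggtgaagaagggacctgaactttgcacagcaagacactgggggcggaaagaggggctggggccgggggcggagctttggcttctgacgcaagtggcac
Bex1, before the run: ggaacagagggagaggggaaaatcaatcc
Bex4, before the run: aacagagaaggaaaaatcaatct
The probe sequences were not used here, so whether a probe of one near-identical family gene also reads another was not tested, and the values of Bex1 and Bex4 are uncertain to that extent.

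The values below are spot intensities after background correction and quantile normalization, on the log2 scale. Between 74.1% and 78.2% of the 36227 spots of an array were above background, and the number of arrays limits the precision. Dicer1 was at 6.74, 6.73 and 6.68 in mutant arrays 1, 2 and 3, against 7.82, 7.63 and 7.71 in control arrays 1, 2 and 3 (difference -1.0 ± 0.09 SE, limma adjusted p = 0.036). The spot was dim, and the background offset pulls such a difference towards 0: the authors' normalized intensity, without an offset, was 0.684, 0.702 and 0.681 in mutant arrays against 2.33, 1.97 and 2.04 in control arrays. The place of its probe relative to the deletion is not known here. Over all probes 9 passed at a Benjamini-Hochberg adjusted p under 0.05 (0.0508%), 5 of them higher (0.0282%) and 4 lower (0.0226%) in the mutant. When mutant 1, mutant 2, control 1 or control 2 was left out, 0 probes passed, Dicer1 included. The arrays did not fall cleanly into their groups. Along a first principal component that held 54.1% of the variance, mutant 1 (-18.3) and mutant 2 (-30.1) lay on the side of control 3 (-20.8), and mutant 3 (5.62) on that of control 1 (37.3) and control 2 (26.3). Control 3 correlated with mutant 2 at 0.984 and with the other controls at 0.955 and 0.971. On its brighter probe, Xist was at 10.42, 6.20 and 10.02 in mutant arrays 1, 2 and 3 and at 5.91, 8.73 and 9.88 in control arrays 1, 2 and 3. By that probe both groups held arrays with high and with low Xist. Its other probe was dim, between 6.12 and 6.5 on all 6 arrays, and showed no such split. Eif2s3y, a Y-linked gene, read 6.36, 8.86 and 6.22 in mutant arrays against 8.93, 8.13 and 6.09 in control arrays.

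Bex1, the p75 receptor adaptor, was the member with the widest difference. Its probe was at 11.60, 11.40 and 11.56 in mutant arrays 1, 2 and 3, against 12.53, 12.39 and 12.26 in control arrays 1, 2 and 3. The groups did not overlap, and 0.66 lay between the highest mutant and the lowest control array. The means were 11.52 ± 0.10 in mutant and 12.40 ± 0.14 in control hearts (SD, n = 3 each), a log2 difference of -0.87. On the authors' own normalized intensity scale, without an offset, Bex1 read 38.5, 35.9 and 40.3 in mutant arrays against 83.1, 67.1 and 61.1 in control arrays. The spot was 66.1 to 139 times its local background and unsaturated on all 6 arrays. Control 3, the control array that correlated best with mutants 1 and 2 over all probes (0.979 and 0.984), though not with mutant 3 (0.968), held the lowest Bex1 value of the controls. It still lay far above the mutants.

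Tceal5, a member of the elongation factor A-like subfamily, gave the same picture at a lower signal. Its probe was at 9.53, 9.44 and 9.35 in mutant arrays 1, 2 and 3, against 10.21, 10.29 and 10.08 in control arrays 1, 2 and 3. Again the groups did not overlap, with 0.55 between them. The means were 9.44 ± 0.09 in mutant and 10.19 ± 0.11 in control hearts (SD, n = 3 each), a log2 difference of -0.75. The authors' normalized intensity was 9.02, 8.59 and 7.97 in mutant arrays, against 15.1, 15.7 and 13.4 in control arrays. The spot was 13.0 to 30.1 times its background. Of all genes tested, 325 (2.16%) had a difference at least as low as that of Tceal5.

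Tceal8, which lies next to Tceal5 on its other side, leaned the other way without separating the groups. It was at 9.80, 9.53 and 9.18 in mutant arrays 1, 2 and 3 and at 9.56, 9.09 and 9.11 in control arrays 1, 2 and 3. Mutant 1 and control 1 were the highest arrays, and mutants 2 and 3 lay within the range of the controls. The means were 9.50 ± 0.31 in mutant and 9.25 ± 0.27 in control hearts (SD, n = 3 each), a difference of 0.25.

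Tceal1, whose human protein is known as a nuclear phosphoprotein that modulates transcription, had 2 probes of opposite sign. The brighter one was at 9.27, 9.51 and 9.37 in mutant arrays 1, 2 and 3 and at 9.43, 9.43 and 9.74 in control arrays 1, 2 and 3, a difference of -0.15 between means of 9.38 ± 0.12 and 9.53 ± 0.18 (SD, n = 3 each). The dimmer one was at 8.82, 9.12 and 8.79 in mutant arrays and at 8.61, 8.82 and 9.08 in control arrays, a difference of 0.07 between means of 8.91 ± 0.18 and 8.84 ± 0.23. The groups overlapped on both probes, and control 3 was high on each. No direction can be given for Tceal1.

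**Figure D1:**
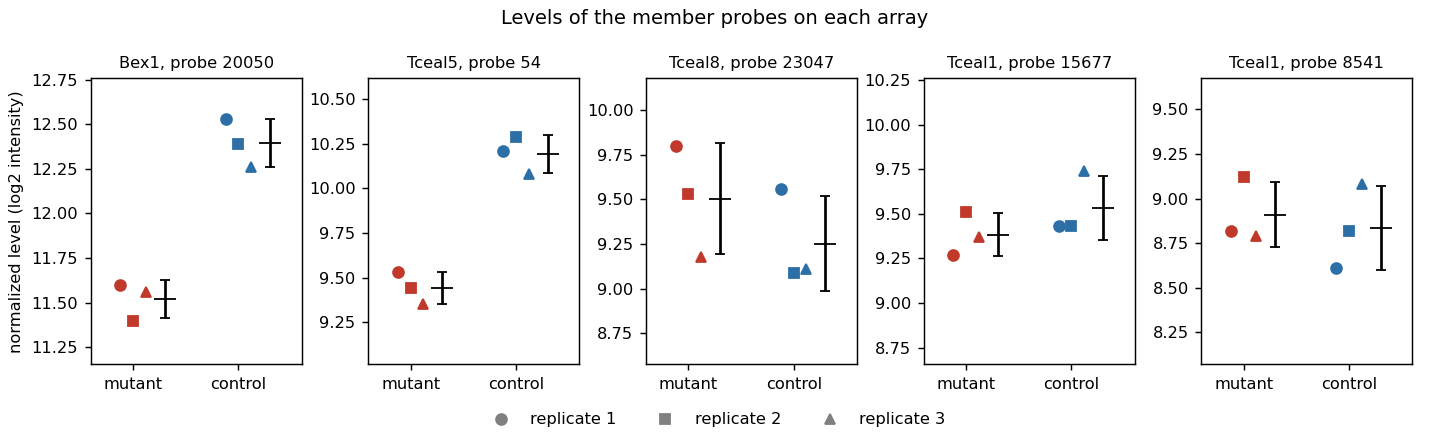
Normalized level (log2 intensity) of the 5 member probes on each mutant array (red, left) and each control array (blue, right), with marker shapes for replicates and a black bar for the mean and SD of each group. The mutant arrays of Bex1 and Tceal5 lie 0.66 and 0.55 below the nearest control array, and the groups of Tceal8 and of both Tceal1 probes overlap.

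Among the 5 member probes, 2 had groups that did not overlap, both lower in the mutant, where 5.27% of all probes tested did so in that direction. This count rests on the contrast by which the members were chosen and is not evidence about them. With the brightest probe of each gene, the median difference of the 4 measured members was -0.45, and that of all genes tested was 0.01. The members' median lies in a gap between Bex1 and Tceal5, at -0.87 and -0.75, and Tceal1 and Tceal8, at -0.15 and 0.25. It does not describe a shift that the members shared.

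The other measured family genes are those left after the members were chosen with the values known, so they are not independent of that choice. Of these 5, 0 passed limma's test adjusted over all probes, which 0.06% of all genes did, and only Bex4 had an unadjusted p under 0.05, as did 10.2% of all genes. Their median difference was -0.02, with 2 above and 3 below 0.

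Bex4, the gene whose promoter matches that of Bex1, was at 12.54, 12.70 and 12.86 in mutant arrays 1, 2 and 3, against 12.38, 12.23 and 12.29 in control arrays 1, 2 and 3. Every mutant array lay above every control array, as did 9.71% of all genes. The difference was 0.40 ± 0.11 (SE), between means of 12.70 ± 0.16 and 12.30 ± 0.07 (SD, n = 3 each), and it did not pass (limma adjusted p = 0.305). The spot was 115 to 167 times its background and unsaturated.

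Bex3, like Bex1 a binder of the p75 receptor and known there as a mediator of cell death signals, was at 13.15, 13.19 and 13.02 in mutant arrays 1, 2 and 3, against 13.23, 13.26 and 13.52 in control arrays 1, 2 and 3. Its groups did not overlap either, but only 0.04 lay between them. The difference was -0.22 ± 0.11 (SE, limma adjusted p = 0.568). Control 3 was the highest array, and without it the difference was -0.13. Groups that lay apart and lower, as for Bex3, were found in 5.48% of all genes.

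Tceal9, also called Wbp5 for its binding to WW domains, was bright and level. It was at 13.00, 12.96 and 13.18 in mutant arrays and at 12.93, 13.11 and 13.16 in control arrays, a difference of -0.02 ± 0.11 (SE, limma adjusted p = 0.962). Tceal6 was dim, at 1.59 to 1.97 times its background, with a difference of -0.05 ± 0.10 (SE, limma adjusted p = 0.876). Bex6, the family gene on chromosome 16, was above background on 4 of 6 arrays and gave 0.00 ± 0.09 (SE, limma adjusted p = 0.998). The background correction pulls differences of such dim probes towards 0, and little can be read from them. A p above the threshold does not show that these genes were equal in the groups.

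**Figure D2:**
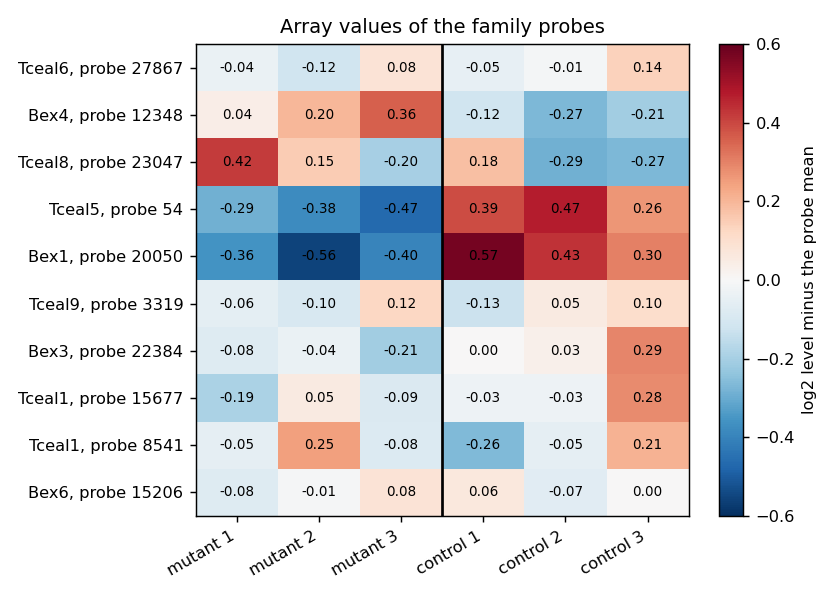
Each family probe (rows, X-chromosome genes in their order, Bex6 last) on each array (columns, mutant left and control right), as log2 level minus the mean of that probe over the 6 arrays; red is above and blue below the mean. Tceal5 and Bex1 are blue in all 3 mutant arrays and red in all 3 control arrays, Bex4 shows the opposite colours, Bex3 is blue in the mutants and at or above its mean in the controls, and the other probes change colour within a group.

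Whether related members moved together was described by the distance between their profiles over the 6 arrays, each gene centred on its own mean. The distance is a root mean square on the log2 scale. Tceal5 was 0.11 from Bex1 and ranked 3 among 14989 genes in nearness to it. Seen from Tceal5, Bex1 ranked 7. Both genes were picked for a difference between the same groups, so this nearness is a description.

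The remaining family genes were not close to Bex1. Bex3 was at a distance of 0.38 from it (rank 1765 of 14989), and Tceal1 at 0.42 (rank 3588). Tceal8 was at 0.60, and Bex4 at 0.65, farther than most genes (rank 13530 of 14989). Tceal1, by its brighter probe, and Bex3 lay 0.08 apart, with Bex3 at rank 194 from Tceal1, and both had their highest value in control 3. The dimmer Tceal1 probe had its highest value in mutant 2, at 9.12 against 9.08 in control 3. Tceal6 and Tceal9 lay 0.05 apart, with Tceal9 at rank 90 from Tceal6 and Tceal6 at rank 65 from Tceal9. Both of them varied little over the arrays, which keeps any distance between them small, and Tceal6 was dim. Tceal8 and Bex4 lay 0.30 apart, at rank 9409 seen from Bex4, although both differences were positive.

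By the rule on nearness, the 6 genes outside the family closest to the members' mean profile were Mettl7a2, Plet1os, Rprm, Mettl26, Pter and Fmnl2, at distances of 0.044 to 0.056. Their differences lay between -0.46 for Pter and -0.29 for Fmnl2. The members' mean profile was -0.10, -0.18 and -0.28 in mutant arrays 1, 2 and 3 and 0.28, 0.15 and 0.14 in control arrays 1, 2 and 3. It averages genes of unlike direction.

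**Figure D3:**
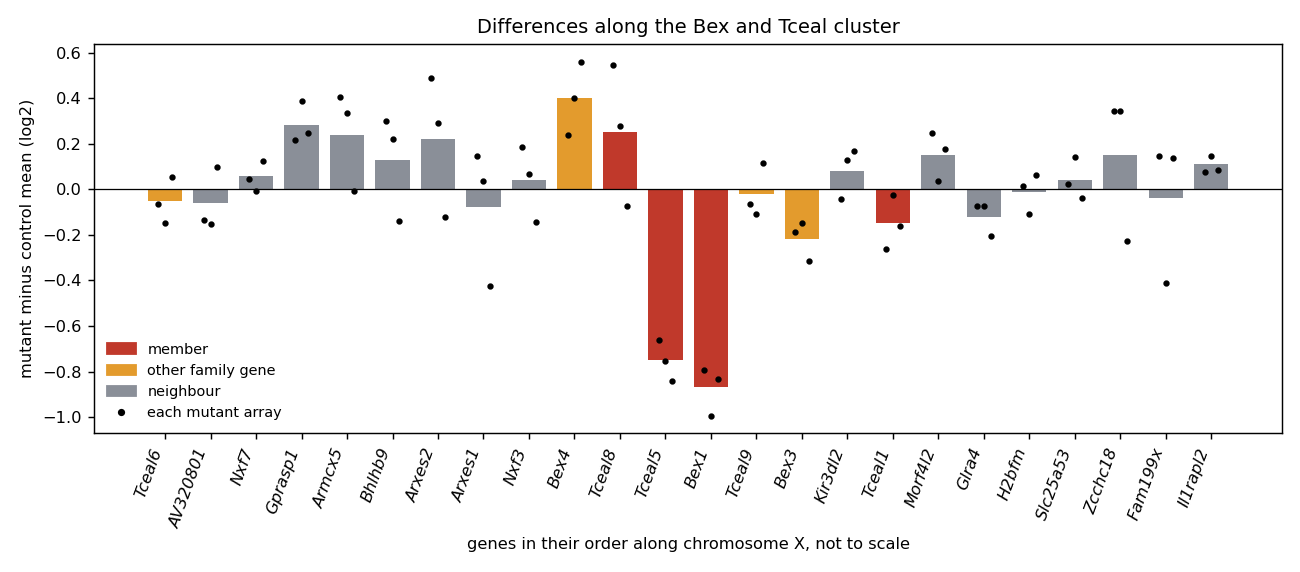
Log2 difference, mutant minus control, for the measured genes of the cluster in their order along chromosome X (not to scale), with members in red, other family genes in orange and neighbours in grey; dots are the 3 mutant arrays, each minus the control mean. Tceal5 at -0.75 and Bex1 at -0.87 stand side by side, Tceal8 at 0.25 and Bex4 at 0.40 precede them, and the neighbours lie between -0.12 and 0.28.

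Along the chromosome, the low genes stood next to each other. From Bex4 through Tceal8, Tceal5 and Bex1 to Tceal9 and Bex3, the differences were 0.40, 0.25, -0.75, -0.87, -0.02 and -0.22. Tceal7, which lies between Bex1 and Tceal9, was not analysed here. Of 33 other genes within 1 Mb of a member, 16 were measured, 0 passed, 0 had an unadjusted p under 0.05 by limma, and in 0 did the groups lie apart. Their median difference was 0.07, with 11 above and 5 below 0. The smallest p among them belonged to Gprasp1, a sorting protein of G protein-coupled receptors, at 0.28 ± 0.17 (SE, limma adjusted p = 0.593), and to Armcx5 at 0.24 ± 0.15 (adjusted p = 0.607). The 483 other measured X genes had a median of 0.00, with 238 above and 245 below 0, and 0 passed while 44 had an unadjusted p under 0.05. Dgkk, a diacylglycerol kinase, at -1.02 ± 0.12 (SE, limma adjusted p = 0.0812), and Fhl1, a LIM protein of striated muscle, at -0.97 ± 0.15 (adjusted p = 0.129), were nearest to passing. Xist was high in mutants 1 and 3 and in controls 2 and 3, and low in mutant 2 and control 1. Control 2 also read high for the Y-linked Eif2s3y, at 8.13. The part of embryo sex in the low Bex1 and Tceal5 values was not tested.

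The Armcx and Gprasp genes, which belong to the same stretch of the chromosome, were divided in direction. Several of them, Gprasp1 and Armcx5 included, were also counted above among the genes near a member, so the lists overlap. Of 11 listed, 10 were measured and 0 passed, with 5 above and 5 below 0, a median of 0.02 and 0 at an unadjusted p under 0.05 by limma. Armcx2, a mitochondrial armadillo protein, gave -0.16 ± 0.08 (SE, adjusted p = 0.553), at 10.77, 10.74 and 10.69 in the mutants against 10.91, 10.90 and 10.88 in the controls. Its groups lay apart by a narrow margin.

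Genes of the pathways in which the family acts were then set beside it. Of 20 genes of the p75 neurotrophin receptor and of Bex partners, 14 were measured and 0 passed limma's test, with 1 at an unadjusted p under 0.05, 7 above and 7 below 0 and a median of 0.00. Lmo2, the partner of human BEX2, was at 7.80, 7.80 and 7.66 in mutant arrays, against 8.22, 8.05 and 7.91 in control arrays, a difference of -0.30 ± 0.11 (SE, limma adjusted p = 0.428). Rela, the NF-kappaB subunit downstream of the receptor, gave -0.26 ± 0.15 (SE, adjusted p = 0.579) with overlapping groups. Of 25 transcription elongation factors 22 were measured and 0 passed, with 2 at an unadjusted p under 0.05, 13 above and 9 below 0 and a median of 0.02. Tcea2, a gene of the TFIIS family itself, gave -0.34 ± 0.10 (SE, limma adjusted p = 0.333). Supt4a, a subunit of the pausing factor DSIF, gave -0.32 ± 0.11 (SE, adjusted p = 0.409).

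In bulk hearts, fewer cells of a type and less RNA per cell cannot be told apart, so marker lists of the cell types that could hold Bex and Tceal RNA are given beside the low Bex1 and Tceal5 values. Neuronal and neural crest markers, of which 12 of 18 were measured and 9 were above background on all arrays, had a median difference of -0.05, with 5 above and 7 below 0. Their summed linear level was 2248 to 2530 in mutant and 2439 to 2754 in control arrays, ranges that overlap. Ret, a receptor of neural crest cells, gave -0.60 ± 0.40 (SE, limma adjusted p = 0.632), and Tubb3, a neuronal tubulin, 0.20 ± 0.14 (SE, adjusted p = 0.646). Cardiomyocyte markers, with 14 of 15 measured, had a median of -0.02, 6 above and 8 below 0, and summed to 192355 to 221756 in mutant and 164605 to 236908 in control arrays. They were led by Myl3, a myosin light chain, at -0.78 ± 0.10 (SE, adjusted p = 0.0836) and Tnni3, cardiac troponin I, at 0.41 ± 0.16 (SE, adjusted p = 0.473). Of the 14 measured cardiomyocyte markers, 13 were above background on all 6 arrays.

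Erythroid and endothelial markers had sums that overlapped between the groups, those of the endothelial list only narrowly. Erythroid markers had a median of -0.28, with 10 of 11 measured genes below 0, and summed to 116163 to 124492 in mutant and 123530 to 130558 in control arrays. Gata1, the erythroid transcription factor, gave -0.68 ± 0.25 (SE, limma adjusted p = 0.428), and Rhag, of the red cell membrane, -0.30 ± 0.17 (SE, adjusted p = 0.578). Endothelial markers had 8 of 9 below 0, a median of -0.13, and sums of 7069 to 8198 in mutant and 8158 to 8733 in control arrays. With each gene centred on its own mean, the endothelial medians did not overlap. They were -0.19, 0.0 and -0.03 in mutants 1, 2 and 3 and 0.05, 0.08 and 0.07 in controls 1, 2 and 3. In 4 of the 9 endothelial genes the groups lay apart and lower in the mutant, as in 5.48% of all genes. Cd34 gave -0.35 ± 0.10 (SE, limma adjusted p = 0.310) and Esam, a junction protein, -0.28 ± 0.11 (SE, adjusted p = 0.445).

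Epicardial and cushion lists had sums that did not overlap between the groups, but linear sums weigh the brightest genes of a list most. The 9 measured epicardial markers, of 10, summed to 7051 to 8145 in mutant and 10103 to 13217 in control arrays, with 7 below 0 and a median of -0.17. Rspo1, a Wnt agonist, gave -0.86 ± 0.25 (SE, limma adjusted p = 0.327) and Bnc1, a mesothelial zinc finger factor, -1.21 ± 0.50 (SE, adjusted p = 0.489). The 10 measured cushion mesenchyme markers, of 11, summed to 11764 to 12522 in mutant and 9380 to 10845 in control arrays, with 5 on each side of 0 and a median of -0.10. Fbln1 at 0.71 ± 0.14 (SE, limma adjusted p = 0.169) and Vcan at 0.61 ± 0.13 (SE, adjusted p = 0.186), both matrix proteins, had the smallest p. Both were bright, with mutant means of 11.66 and 12.12, and weigh heavily in the cushion sum. With each gene centred on its own mean, the cushion medians overlapped. They were 0.05, 0.14 and -0.22 in mutants 1, 2 and 3 and -0.06, 0.01 and 0.04 in controls 1, 2 and 3. The epicardial medians were -0.01, -0.1 and -0.1 in mutants and 0.08, 0.16 and 0.0 in controls. In these 6 marker lists 0 genes passed, and those at an unadjusted p under 0.05 by limma numbered 0 neuronal, 3 cardiomyocyte, 1 erythroid, 2 endothelial, 2 epicardial and 4 cushion markers. The part of these cell types in the low Bex1 and Tceal5 values was not tested.

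**Figure D4:**
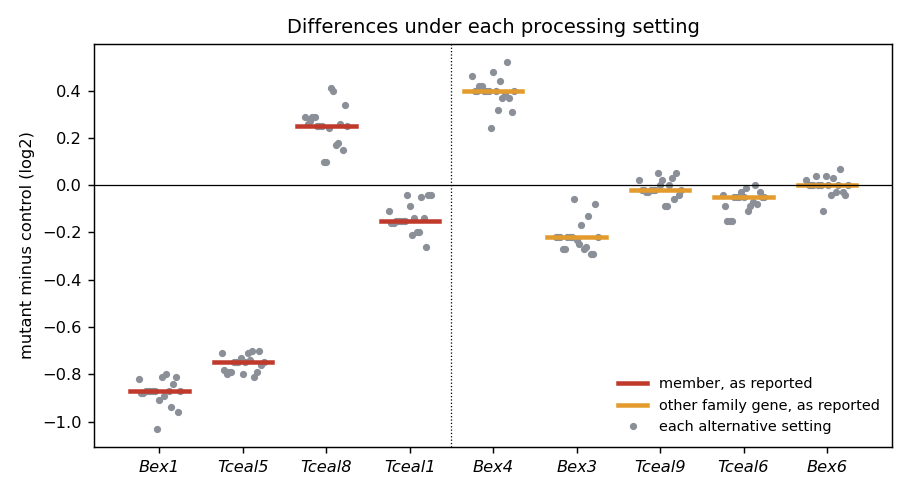
Log2 difference, mutant minus control, of each measured family gene: coloured lines give the reported value (members red, other family genes orange) and grey dots the value under each alternative processing setting. Bex1 stays between -1.03 and -0.80, Tceal5 between -0.81 and -0.70, and Tceal8 and Bex4 stay above 0. Bex3 stays below 0, as does Tceal1 by its brighter probe or by the mean of its probes. The dimmer Tceal1 probe, at 0.07 as reported, is not shown alone. Tceal9, Tceal6 and Bex6 lie between -0.15 and 0.07.

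The differences of Bex1 and Tceal5 were similar in all processing settings tried. In 19 alternatives, Bex1 lay between -1.03 and -0.80 and Tceal5 between -0.81 and -0.70. The -1.03 came from the block on the code that starts the titles, which compares only mutants 1 and 2 with control 1. Some alternatives could not move these genes. Both filter changes, the block on the shared title number and the mean over a gene's probes gave -0.87 and -0.75 again. The series' value table repeats the authors' normalized intensity. Tceal8 stayed above 0 in all 19 but ranged from 0.10 to 0.41, and the brighter Tceal1 probe stayed below 0 but came as near to it as -0.04. Bex4 ranged from 0.24 to 0.52. The 0.24 came from the same block on the title code. Passing under that block is not considered, for any gene, since control 1 is the only control it compares. In the other alternatives none of Bex3, Bex4, Tceal6 and Tceal9 passed, nor did Bex6 in those run for it.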

How the data were processed

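Gene expression was measured on 6 single-colour arrays, 3 of mutant and 3 of control hearts, grouped by the labels' descriptions. For every spot the deposited files give its mean intensity, the median of the local background, both a subtracted and a normalized intensity, and a flag. By a check of the values, the authors' normalized intensity is the subtracted intensity divided by 1 constant per array, between 66.1 and 82.8. The series' value table repeats it on spots flagged good, on a linear scale with column medians of 1.83 to 2.06. Scanner and software: not given in the sources used here. The platform annotation lists 21880 of 36227 spots with a gene; the other 14347 are unnamed, control spots are not marked among them, and they were left out.

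Under R 4.3.3, limma 3.58.1 corrected the spot means for background (normexp, offset 50), and they were turned into log2 values and quantile-normalized over the listed spots. Probes above background by the deposited flag on at least 3 of 6 arrays were compared, mutant minus control, by lmFit and eBayes with no block, in a two-sided test with Benjamini-Hochberg adjustment over all 17727 probes. The brightest probe stood for a gene. The procedure was tested on simulated data. The members, the family, pathway and marker lists and the tests were chosen with earlier results of these data known; the promoter letters were chosen after the promoters were read. Named are all family genes measured, Dicer1, Xist and Eif2s3y, and from each list up to 4 genes that pass or else the 2 with the smallest p, plus the 6 genes nearest the members' mean profile. Armcx1, Armcx4 and Armcx6 were named for their promoters. Alternatives changed the normalization, background, unit, filter, block, arrays and choice of probe.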

Additional observations from a re-analysis of the deposited data

How the results depend on the processing

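The number of probes called, 9, was 8 with scale normalization or a smaller offset, 5 with the subtracted intensity and with the series' value table, and 4 with the authors' normalized intensity. What the title numbers shared by a mutant and a control array mark is not known here. The deviations of same-numbered arrays from their group means correlated at 0.014, -0.48 and -0.381. Mutants 2 and 3 correlated better with another number than with their own. Deviations from a mean of 3 arrays depend on each other, so these values cannot decide whether the numbers mark pairs. The replicate block on that number gave 0 calls (1322 at an unadjusted p under 0.05 by limma). The block on the code that starts the titles gave 1338 calls. It compares only mutants 1 and 2 with control 1, so these calls are not considered. What that code marks is not known here. Leaving out 1 array gave 0 to 320 calls: 320 without control 3, 1 without mutant 3 and 0 without each of the others (842 to 1419 at an unadjusted p under 0.05). Leaving out both arrays of a number gave 0, 0 (969 and 424 at an unadjusted p under 0.05) and, without mutant 3 and control 3, 3921. The genes of the pathway, neighbour and marker lists called, 0 as reported, were 33 without mutant 3 and control 3. They were 0 to 3 on leaving out 1 array, where Msx1, Myl3 and Slc4a1 passed without control 3. They were 10 with the block on the title code, which are not considered for the same reason. The count of list genes was added after seeing the data. With the block on the title code, so in mutants 1 and 2 against control 1, Bex6, at 0.00, turned to -0.11, and Bex1 moved to -1.03. The members' median stayed between -0.48 and -0.43 on leaving out 1 array. Signal close to background limits Tceal6 and Bex6. The cause of these shifts was not tested.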
